A study of Rattus norvegicus with 32 samples.

Results

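The 36 genes described here build the machinery that copies DNA, and they were followed in the mammary gland of adult virgin Sprague Dawley rats over the 4-day estrous cycle. They were chosen by name, as probe sets (groups of short probes that read 1 transcript) of the Affymetrix rat genome array that carry the gene's symbol and reached an intensity of 10 on all arrays used. By that rule 31 of the 36 genes were measured, out of 11211 genes with a single symbol and a probe set over the same minimum. Of the other 5, Cdc6 and Gins2 had no probe set under their symbol, the Rrm2 probe sets also carried the symbol Rrm2l1, and Mcm10 and Pole2 each fell under the minimum on 1 array. Their lowest intensities were 9.04 for Mcm10 and 9.53 for Pole2, and the measured gene closest to the minimum was Pole, with a lowest intensity of 10.0.

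Each array read the total RNA of the gland of 1 untreated rat killed at its own hour, so no hour had a replicate. The rats fell into 8 on day 1 (7 to 17.6 h), 8 on day 2 (31.6 to 43 h), 8 on day 3 (57 to 67.1 h) and 7 on day 4 (79.3 to 88.1 h), with estrus on day 2 by the study's account, and the array of 40 h was left out as the study did. The rats of a day serve here as replicates of the day, and array medians lay between 49.9 and 54.7. Lymph nodes had been removed from the gland. In RNA of a whole gland, more cells that copy DNA and more RNA per such cell cannot be told apart.

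DNA is copied once per division, in S phase. The MCM helicase is loaded on DNA by Cdc6 and Cdt1 in G1, with geminin (Gmnn) blocking Cdt1 afterwards, and is switched on by Cdc45 and the GINS complex. Polymerases alpha, delta and epsilon then build the strands, delta and epsilon with the clamp Pcna. Fen1 and Lig1 join the pieces of the lagging strand, RPA coats single strands, and Rrm1, Tyms and Tk1 supply nucleotides. Many of these genes are known targets of the E2F transcription factors. Cdk1, the kinase that drives entry into mitosis, was used as the reference for the timing of division.

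Nearly all measured replication genes were high in the same few rats. In the rat of 62.5 h (day 3), 27 of the 31 genes had their highest value of all 31 rats, and the median gene lay 1.34 log2 units above its own mean. In the rat of 43 h (day 2) the median gene was 0.89 above its mean and in the rat of 37.1 h (day 2) 0.76 above, and in each of these 2 rats 30 of 31 genes were above their means. These 3 rats were neither neighbours in time nor of 1 day. The rat of 64.2 h, next after 62.5 h, had a median of -0.23, and the rat of 38.3 h, next after 37.1 h, had -0.02.

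**Figure D1:**
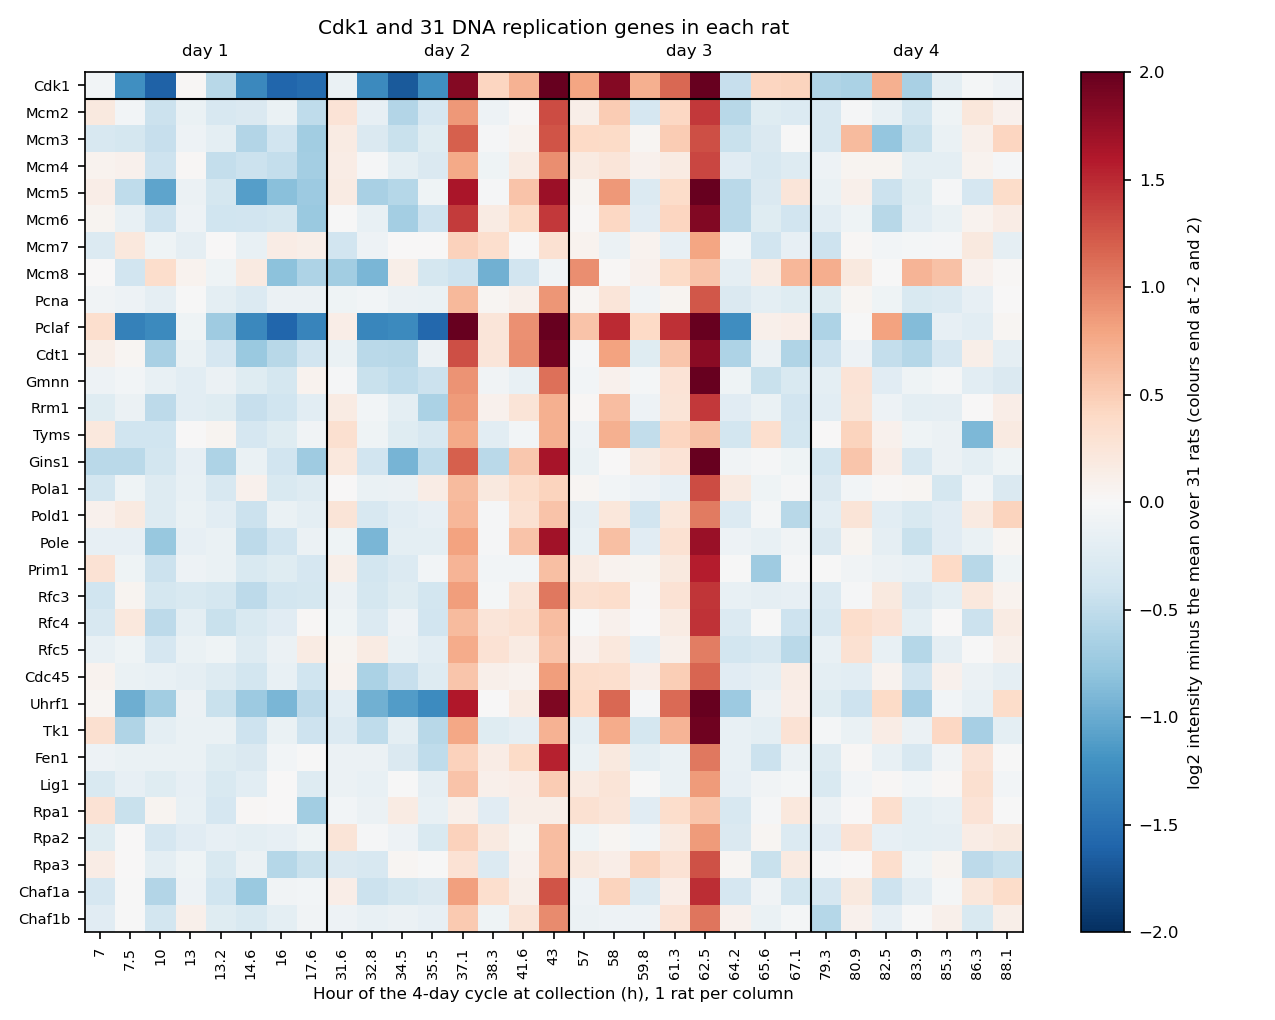
Log2 intensity of Cdk1 (top row) and the 31 measured replication genes in each of 31 rats, minus the gene's mean over the rats, with rats in order of the hour of collection and black lines between days. The columns of 37.1, 43 and 62.5 h stand out in nearly every row, while the row of Mcm8 has another order.

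The reference gene was high in the same rats. Cdk1 had an intensity of 24.1 to 75.2 on day 1 (median 30.9), 23.04 to 389 on day 2 (median 83.0), 53.7 to 778 on day 3 (median 124) and 47.0 to 121 on day 4 (median 64.1). Its 3 highest values were those of 62.5, 43 and 37.1 h, and the 4 days overlapped. The rat of 58 h was all but level with that of 37.1 h in Cdk1 (264.1 against 264.5). In the replication genes it was not, as their median at 58 h was 0.25 above the mean. Cdk1 was 1.94 log2 units higher on day 3 than on day 1 (SE 0.50, adjusted p = 0.0498 in limma over all probe sets). That call is close to the threshold, and 20 of 31 fits with 1 rat left out no longer passed (adjusted p 0.0255 to 0.129). Over the other alternatives the adjusted p ran from 0.0186 to 0.608, the highest with basal and myoepithelial markers as a covariate, where the difference was 1.17.

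Pclaf, a small protein that binds the clamp Pcna, followed Cdk1 most closely. Its intensity was 29.6 to 113 on day 1 (median 36.8), 30.1 to 425 on day 2 (median 102), 37.7 to 1233 on day 3 (median 125) and 48.9 to 155 on day 4 (median 79.7). The highest value was that of 62.5 h, and the lowest of day 3, 37.7, was that of the next rat at 64.2 h.

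**Figure D2:**
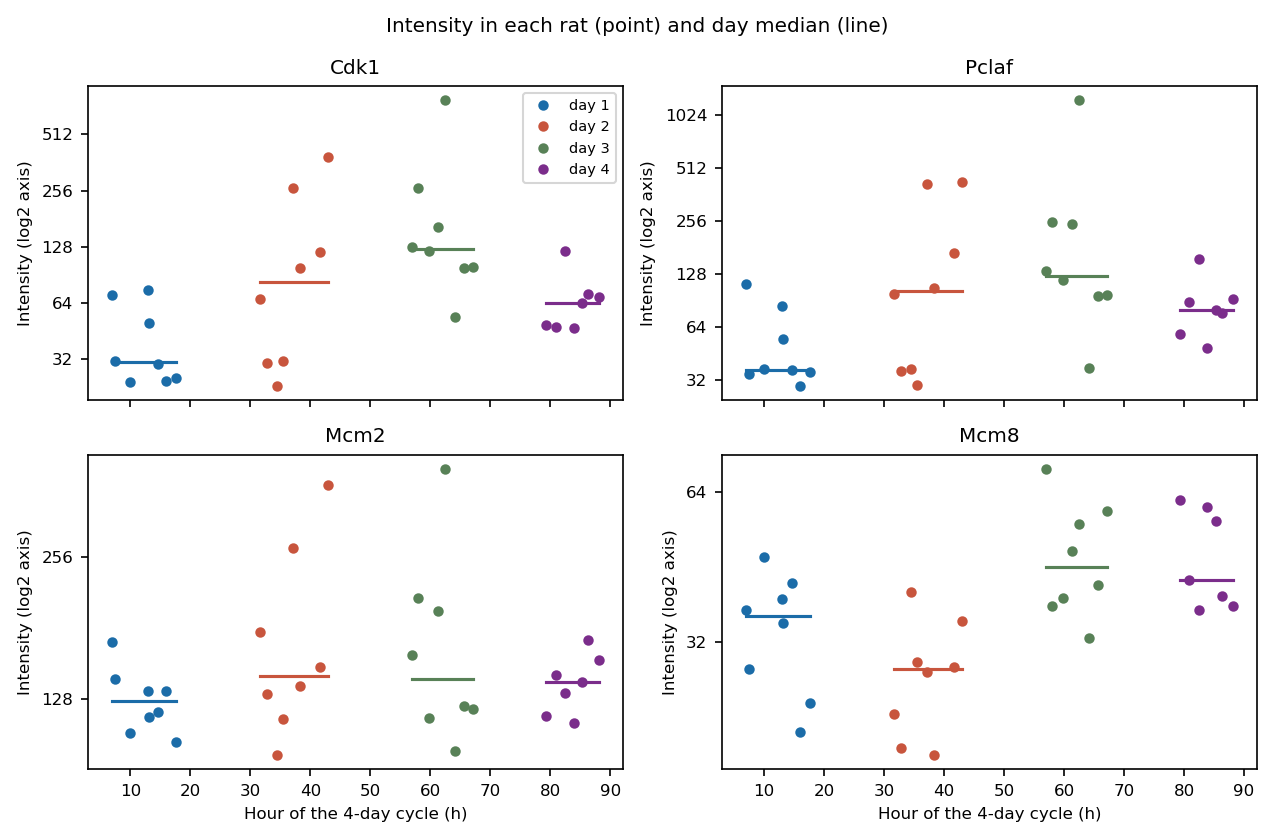
Intensity of Cdk1, Pclaf, Mcm2 and Mcm8 in each rat (points, log2 axis) against the hour of the cycle, with the median of each day as a line. Cdk1, Pclaf and Mcm2 share their high rats on days 2 and 3, and Mcm8 is lowest on day 2 (median 28.3) and higher on days 3 and 4 (medians 45.2 and 42.7).

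Among the helicase genes, Mcm5 had the widest range. Mcm5 stood at 14.8 to 34.9 on day 1 (median 20.99), 20.5 to 105 on day 2 (median 33.7), 21.97 to 137 on day 3 (median 35.6) and 23.7 to 41.1 on day 4 (median 29.2). Mcm6 stood at 93.4 to 162 on day 1 (median 121), 97.7 to 414 on day 2 (median 165), 108 to 561 on day 3 (median 146) and 107 to 173 on day 4 (median 142). For both genes the medians of the days lay far closer together than the rats of day 2 or of day 3 did. Mcm2, Mcm3 and Mcm4 had the same 3 top rats, and their highest over lowest value was 4.03-fold, 4.15-fold and 4.06-fold.

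Mcm7, another subunit of the same ring, moved little. It stood at 516 to 721 on day 1 (median 602), 476 to 857 on day 2 (median 623), 474 to 1077 on day 3 (median 584) and 464 to 709 on day 4 (median 607), a 2.32-fold range. The rat of 62.5 h was highest, and those of 37.1 h (857), 38.3 h (783) and 43 h (762) came next.

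The loading factor Cdt1 and its inhibitor geminin had their high values in the same rats but not in the same order. Cdt1 stood at 24.1 to 43.9 on day 1 (median 31.5), 27.5 to 153 on day 2 (median 42.6), 26.5 to 141 on day 3 (median 38.7) and 27.2 to 44.1 on day 4 (median 32.2), with the rat of 43 h highest. Gmnn reached 178 at 62.5 h against 87.5 at 43 h, and its day medians were 35.7 to 39.4.

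Of the helicase activators, Cdc45 stood at 31.6 to 43.7 on day 1 (median 37.1), 26.97 to 74.3 on day 2 (median 43.9), 35.6 to 93.4 on day 3 (median 49.5) and 31.8 to 44.0 on day 4 (median 36.9). Its probe set is of the kind that may also read related transcripts, and of the other 3 Cdc45 probe sets the 1 that passed the minimum correlated with it at r = 0.90. Gins1 stood at 18.1 to 26.8 on day 1 (median 21.4), 15.4 to 91.9 on day 2 (median 28.3), 26.9 to 165 on day 3 (median 29.3) and 22.8 to 43.1 on day 4 (median 27.1). On day 3 the rat of 62.5 h was far above the others in Gins1.

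The polymerase genes had the same high rats. Pole, the catalytic subunit of polymerase epsilon, stood at 11.2 to 17.5 on day 1 (median 16.9), 10.0 to 60.5 on day 2 (median 18.2), 16.1 to 62.7 on day 3 (median 17.8) and 13.9 to 19.6 on day 4 (median 16.7). Pold1, of polymerase delta, stood at 38.5 to 58.5 on day 1 (median 46.3), 41.5 to 82.4 on day 2 (median 56.5), 35.2 to 107 on day 3 (median 47.9) and 41.8 to 70.3 on day 4 (median 44.8). For both genes the day medians differed less than the rats of day 2 did. Pola1 and the primase gene Prim1 were also highest at 62.5 h, at 262 and 583.

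The clamp Pcna had its day 1 values between 1270 and 1538 and its day 4 values between 1248 and 1576, against 2423 at 37.1 h, 2851 at 43 h and 3622 at 62.5 h. Of the clamp loader, Rfc3 stood at 76.9 to 114 on day 1 (median 86.1), 85.8 to 229 on day 2 (median 104), 97.2 to 296 on day 3 (median 123) and 90.02 to 128 on day 4 (median 108). Rfc5 stood at 151 to 214 on day 1 (median 174), 164 to 319 on day 2 (median 214), 132 to 388 on day 3 (median 187) and 129 to 235 on day 4 (median 172). Rfc4 had the same top rat, at 602.

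Lig1, Rpa1 and Rpa2, of the lagging strand and of single-strand binding, were with Mcm7 the 4 genes of smallest spread. Fen1, the flap nuclease, stood at 22.7 to 27.5 on day 1 (median 25.3), 19.6 to 80.4 on day 2 (median 28.2), 20.5 to 57.6 on day 3 (median 25.3) and 22.3 to 33.7 on day 4 (median 26.4), with 43 h highest. Lig1, the ligase, stood at 115 to 142 on day 1 (median 122), 126 to 212 on day 2 (median 147), 127 to 255 on day 3 (median 140) and 116 to 177 on day 4 (median 138). The 3 RPA subunits, which form 1 complex, were not alike. Rpa2 stood at 125 to 159 on day 1 (median 139), 128 to 242 on day 2 (median 171), 129 to 284 on day 3 (median 157) and 135 to 192 on day 4 (median 142). Rpa1 stood at 102 to 203 on day 1 (median 158), 143 to 187 on day 2 (median 169), 133 to 245 on day 3 (median 194) and 145 to 210 on day 4 (median 166), and neither 37.1 nor 43 h was among its 3 highest rats. Rpa3 ranged from 472 to 1688, with 62.5, 43 and 59.8 h highest.

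Of the nucleotide genes, Rrm1, the large subunit of ribonucleotide reductase, ranged from 211 to 868 and Tk1, thymidine kinase, from 12.4 to 75.8, both highest at 62.5 h. Tyms, thymidylate synthase, ranged from 12.4 to 38.8 and was highest at 37.1 h. The probe set that carries the symbols of both Rrm2 and Rrm2l1 is no measurement of Rrm2 alone. It went up to 1633, highest at 62.5 h, with r = 0.94 with Cdk1.

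Of the chromatin genes, Uhrf1, which brings the maintenance methyltransferase to new DNA, stood at 29.6 to 59.9 on day 1 (median 38.2), 24.2 to 212 on day 2 (median 54.4), 35.2 to 487 on day 3 (median 70.4) and 36.9 to 76.1 on day 4 (median 52.4). The histone chaperone genes Chaf1a and Chaf1b reached 157 and 81.7, also at 62.5 h.

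The spread between rats can be put in 1 number per gene, the residual SD of the log2 intensity around the day and the clock hour. All 31 genes were above the median of all probe sets in it, with a median of 0.41 log2 units against 0.23. The 3 widest were Pclaf (1.18), Uhrf1 (0.89) and Mcm5 (0.69) and the 3 narrowest Lig1 (0.24), Mcm7 (0.26) and Rpa1 (0.26). Pclaf spanned 41.6-fold over the rats, Uhrf1 20.1-fold and Lig1 2.2-fold, against 33.7-fold for Cdk1. Rats that follow each other within a day differed on average by 1.12 log2 units in Pclaf and by 0.25 in Lig1. The median residual SD was 0.25 without the rats of 37.1, 43 and 62.5 h, a choice made after their values were seen.

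The share of a gene's log2 variance that lay between days ran from 4.64% for Mcm7 to 48.3% for Mcm8, with 27.1% for Pola1 next after Mcm8, against 36.1% for Cdk1. On the log2 scale, 28 of 31 genes had their lowest day mean on day 1, and 16 had the highest on day 2, 14 on day 3 and 1, Mcm8, on day 4.

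Each probe set was tested for a difference between days in limma, with the clock hour as a covariate and p-values adjusted over all 21068 probe sets. Of the 31 genes 1, Mcm8, had a day effect (adjusted p = 0.0399), where 0.574% of all probe sets passed. No replication gene passed between day 1 and day 2, where 0.00475% of all probe sets did. None passed between days 1 and 3 (1.12% of all), days 1 and 4 (0.0237% of all), days 3 and 4 (0% of all) or days 2 and 4 (0.0427% of all). Between days 2 and 3 the 1 gene that passed was Mcm8, against 0.271% of all and 0.0665% of all with day 3 higher.

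Without adjustment, 15 of the 31 genes had p under 0.05 for day 3 against day 1, where 13.8% of all probe sets did, and 11 for day 2 against day 1, where 5.78% did. The count was 1 for day 4 against day 1 (6.47% of all), 1 for day 3 against day 2 (12.7%), 2 for day 4 against day 3 (5.79%) and 2 for day 4 against day 2 (7.48%). All 31 estimates of day 3 minus day 1 were above 0, as were 48.7% of those of all probe sets, and the median was 0.35 log2 units against 0.00 over all. Pclaf had the largest, 1.70 (SE 0.56, adjusted p = 0.147), followed by Uhrf1 with 1.105 (SE 0.42, adjusted p = 0.225) and Mcm5 with 0.84 (SE 0.33, adjusted p = 0.232). The genes share the same rats, so 31 estimates of 1 sign are not 31 observations. The median of day 2 minus day 1 was 0.33 and that of day 4 minus day 3 was -0.22.

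**Figure D3:**
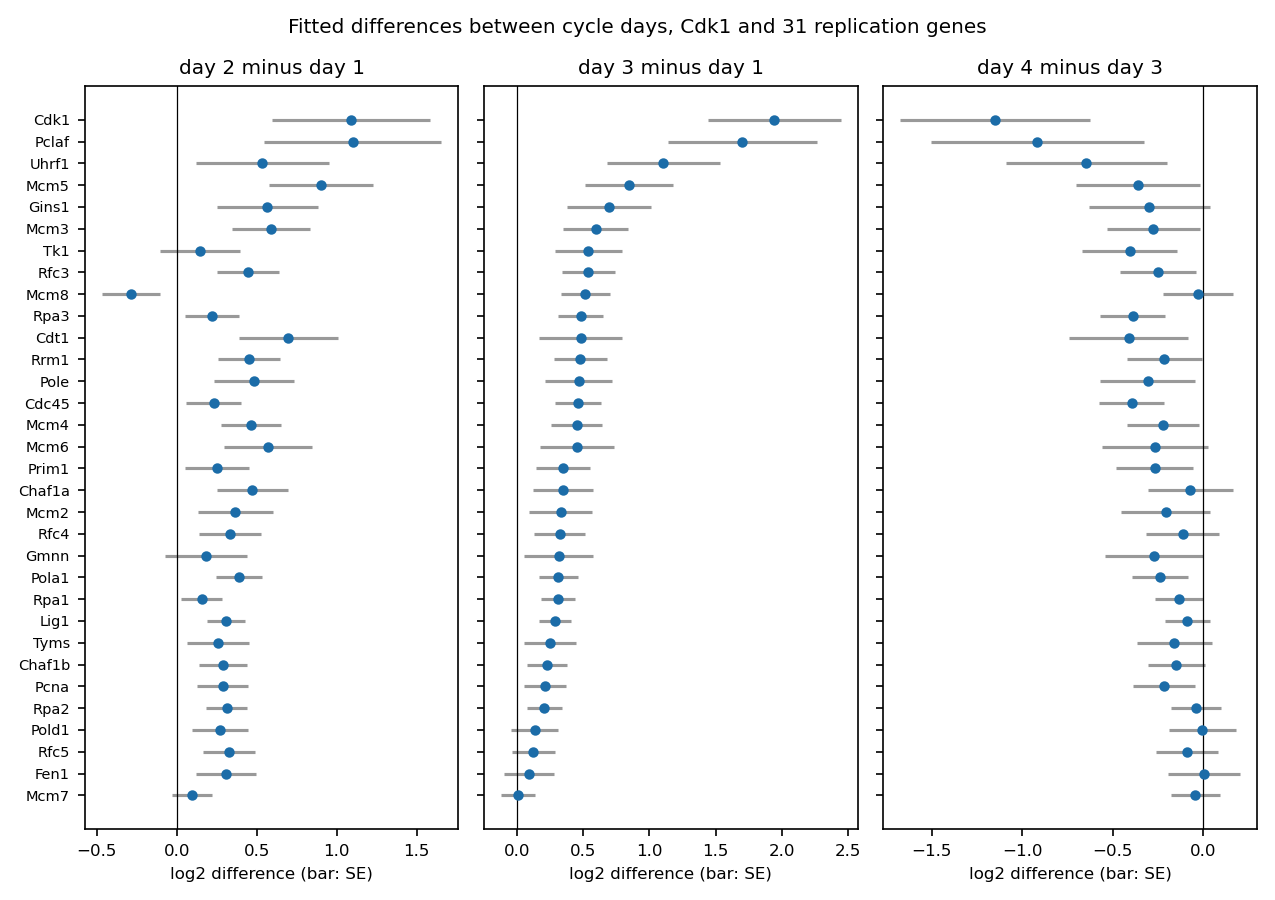
Fitted log2 differences between cycle days (points) with their SE (bars) for Cdk1 and the 31 replication genes, ordered by day 3 minus day 1. Day 3 minus day 1 is above 0 for every gene, from 0.00 to 1.70 for the replication genes, and Mcm8 is the lowest of day 2 minus day 1.

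Mcm8, a relative of the MCM subunits known for its part in recombination repair, had a course of its own. It stood at 21.1 to 47.4 on day 1 (median 36.1), 19.1 to 40.3 on day 2 (median 28.3), 32.6 to 71.1 on day 3 (median 45.2) and 37.1 to 61.6 on day 4 (median 42.7). Days 2 and 3 overlapped, with 2 of 8 rats of day 2 above the lowest of day 3. Day 3 was 0.80 log2 units above day 2 (SE 0.18, adjusted p = 0.0496), and day 4 was 0.78 above day 2 (SE 0.19, adjusted p = 0.143). Its rats of 37.1 and 43 h, high in nearly all other replication genes, were at 27.9 and 35.3, under its mean. Over the 31 rats its median r with the other 30 genes was 0.07, and the closest was Rpa1 at 0.42, whereas the median over all 465 pairs of genes was 0.78. The day 3 against day 2 call is close to the threshold. With 1 rat left out in turn the difference stayed between 0.71 and 0.89 and 21 of 31 fits no longer passed (adjusted p 0.0339 to 0.126). The summed level of 6 of 12 lymphocyte markers reached 1125 and 1169 on days 1 and 2 but 3950 and 4273 on days 3 and 4, with lowest values of 596 to 737 on the 4 days, and 0 of the 6 passed between days 2 and 3. With the mean of these 6 standardised markers as a covariate in limma, the difference in Mcm8 was 0.80 with an adjusted p of 0.169, and the probe sets called over all fell from 57 to 11.

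No replication gene passed for a slope along the clock hour from morning to evening, where 1.96% of all probe sets did. The median estimate was 0.15 log2 units over 10 h, with 25 of 31 above 0, and 1 gene had an unadjusted p under 0.05 (12.6% of all probe sets). A difference of this slope between the days, tested in limma as an interaction, passed for none of the 31 (0.00475% of all probe sets passed). The lowest adjusted p of the 31 was 0.99994, and 6 had an unadjusted p under 0.05, as did 3.56% of all.

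The study's own screen, Method 1, fits a linear spline with 8 knots to the 4 days and takes rho, the share of the variance of the log values that the spline holds, against a null from a set permutation of the arrays. At its false discovery rate of 0.25 it called 8 of the 31 genes, where it called 9.06% of all probe sets. These were Mcm8 and Cdt1 (rho 0.54 each), Pole (0.48), Rfc3 and Cdc45 (0.47 each), Fen1, Rpa3 and Pclaf (0.45 each), against 0.57 for Cdk1. The other Cdc45 probe set over the minimum had a rho of 0.31 and was not called.

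The other genes had lower values. In the helicase group rho was 0.43 for Mcm5, 0.41 for Mcm4, 0.38 for Mcm3, 0.37 for Mcm6, 0.29 for Mcm2, 0.21 for Mcm7 and 0.19 for Gmnn. It was 0.32 for Gins1, 0.35 for Pola1, 0.23 for Pold1 and 0.20 for Prim1, and in the clamp group 0.33 for Pcna, 0.26 for Rfc4 and 0.30 for Rfc5. It was 0.44 for Lig1, 0.26 for Rpa2, 0.25 for Rpa1, 0.34 for Rrm1, 0.24 for Tk1, 0.16 for Tyms, 0.40 for Uhrf1, 0.39 for Chaf1b and 0.35 for Chaf1a. The replication genes thus spread from well under the called range to within it.

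The number called by Method 1 rested on single rats, and so did that over all probe sets, which was 1908 with all 31 rats and 665 to 2709 with 1 left out. Leaving out the rat of 62.5 h gave 17 replication genes (1777 probe sets in all), that of 41.6 h gave 12 (2318), that of 38.3 h gave 11 (2586), that of 43 h left 1 (988) and that of 35.5 h left 0 (665). The number was 2 when any 1 of the rats of 7, 13, 16, 32.8, 57, 58, 59.8, 67.1, 80.9, 83.9 or 85.3 h was dropped (742 to 1618 in all), 3 for 17.6 h (1692), 4 for 13.2, 14.6, 64.2, 65.6, 86.3 or 88.1 h (1340 to 1940) and 5 for 10 or 61.3 h (1843 to 1911). A moderated F test of the same spline in limma called 0 of 31 at an adjusted p of 0.05 (1.17% of all probe sets), with 12 at an unadjusted p under 0.05 (11.5% of all). Without the rats of 37.1, 43 and 62.5 h Method 1 called 11 of 31 (8.33% of all probe sets).

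Between rats of the same day the genes moved with Cdk1. In limma, with day and clock hour as covariates, 28 of the 31 genes had a slope on Cdk1 that passed, all above 0, where 11.8% of all probe sets passed and 8.48% did so with a slope above 0. Per log2 unit of Cdk1 the slope was 1.09 log2 units for Pclaf (SE 0.05, adjusted p = 5.51e-15), 0.80 for Uhrf1 (SE 0.05, adjusted p = 2.26e-12), 0.58 for Mcm5, 0.55 for Cdt1, 0.50 for Gins1 and 0.49 for Mcm6. Pclaf thus moved about as far as Cdk1 on the log2 scale, and the other genes less far. The 3 genes that did not pass were Rpa1 (0.12, adjusted p = 0.0605), Mcm7 (0.11, adjusted p = 0.0801) and Mcm8 (0.06, adjusted p = 0.654).

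That count rested on the 3 high rats together. Without the rats of 37.1, 43 and 62.5 h, 9 of 31 passed, where 0.926% of all probe sets did. The 9 were Pclaf (slope 1.04), Uhrf1 (0.64), Cdt1 (0.44), Mcm5 (0.42), Mcm6 (0.30), Pole (0.27), Mcm2 (0.27), Cdc45 (0.23) and Mcm4 (0.19), and the slopes of Mcm7 and Mcm8 were -0.01 and -0.05. With any 1 rat left out the count was 27 to 29 (1299 to 2952 of all probe sets). The slope on Cdk1 was tested for a difference between days as an interaction, and 0 of 31 genes passed (0% of all probe sets, lowest adjusted p of the 31 = 0.719), with 15 at an unadjusted p under 0.05 (5.5% of all).

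As Pearson correlations over the 31 rats, 29 of 31 genes had r above 0.5 with Cdk1, as 8.24% of all probe sets did, and the median was 0.79. The highest were Pclaf (r = 0.97, Spearman rho = 0.94), Uhrf1 (0.95 and 0.93) and Cdc45 (0.91 and 0.84), each with a permutation p of 1e-05, the smallest that 100000 permutations can give. The lowest were Mcm8 (r = 0.24, rho = 0.14, permutation p = 0.2 and 0.45), Mcm7 (r = 0.42, rho = 0.12, permutation p = 0.018 and 0.5) and Rpa1 (r = 0.57, rho = 0.48, permutation p = 0.001 and 0.0064). These are 31 two-sided relations with unadjusted p, and the adjusted values are those of the slopes above. Without the 2 rats farthest from the median of Cdk1, 62.5 and 43 h, r was 0.95 for Pclaf, 0.92 for Uhrf1, 0.85 for Cdc45, 0.48 for Rpa1, 0.18 for Mcm8 and 0.06 for Mcm7. The median over the 31 was then 0.62, with 22 genes above 0.5, so the relation of Mcm7 rests on those rats. Without the 3 high rats the median was 0.53, with 16 genes above 0.5 (4.26% of all probe sets).

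**Figure D4:**
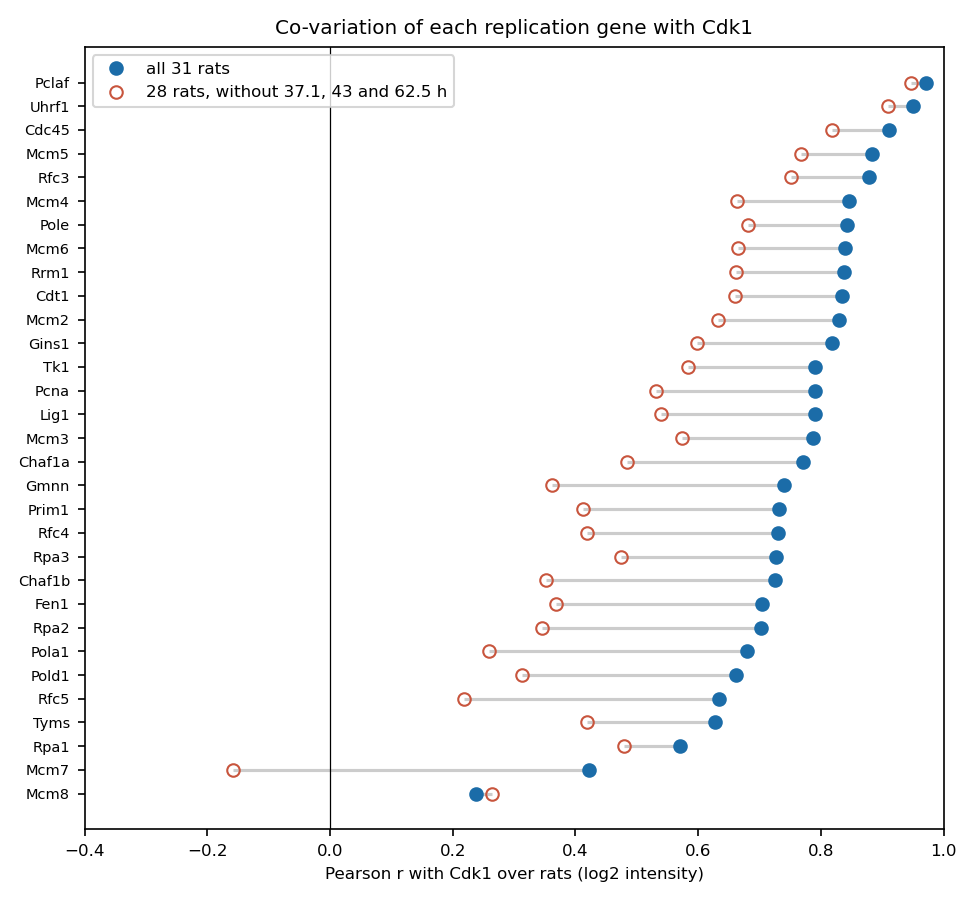
Pearson r of each replication gene with Cdk1 on log2 intensities, over all 31 rats (filled) and over 28 rats without those of 37.1, 43 and 62.5 h (open), ordered by the first. Pclaf, Uhrf1 and Cdc45 keep r above 0.8 in both, and Mcm7 goes from 0.42 to -0.16.

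Within single days the correlation with Cdk1 was highest on days 2 and 3, which held the high rats, as a description over 7 or 8 rats. For days 1 to 4 in turn the median r was 0.46, 0.91, 0.92 and 0.13. Pclaf (0.85 to 0.99) and Uhrf1 (0.83 to 0.98) were above 0.8 on all 4 days. On day 4 the r of Mcm8 was -0.67, that of Gmnn -0.53, that of Mcm3 -0.42, that of Mcm6 -0.42 and that of Mcm5 -0.39, while 5 genes were above 0.5. Cdk1 ran from 47.0 to 121 on that day and from 24.1 to 75.2 on day 1. Whether its range bears on r was not tested.

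A lead or lag to Cdk1 was looked for in steps from rat to rat. The steps follow the order of the hours and are uneven, as 13 to 13.2 h and 38.3 to 41.6 h are 1 step each. Each gene was set against Cdk1 of the rat 1 or 2 steps earlier or later in the same day, and for 30 of 31 genes r was highest in the same rat. The exception was Mcm8. The median r was 0.79 in the same rat, against 0.23 and 0.21 at 1 step and 0.15 and 0.16 at 2 steps on either side. Only the comparison in the same rat reads both genes on 1 array, and rats next to each other differed by 0.98 log2 units in Cdk1 on average. That spread lowers r at every other step, so these values cannot decide on a lead or lag. Each rat was killed once, so a lag within an animal cannot be read from these data.

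Over the 4 days the spline of 27 of the 31 genes was highest at the 43 h knot, as was that of Cdk1. Tk1, Rpa1 and Rpa3 were highest at 58 h and Mcm8 at 79.3 h. This place rested on 2 rats. Without the rat of 43 h the spline of Cdk1 was highest at 58 h and 15 genes shared that knot, and without the rat of 57 h Cdk1 was again at 58 h and 7 genes shared it. By day means Cdk1 was highest on day 3, as were 14 of 31 genes.

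The day course of each gene was also tested against that of Cdk1 itself, as the difference of the 2 log2 values. It differed for 17 of the 31 genes, where it did for 98.1% of all probe sets, since the same course of Cdk1 is taken from every probe set. The genes with the smallest adjusted p were Mcm7 (0.0107), Fen1 (0.0126), Rfc5 (0.0144), Pold1 (0.0147), Mcm8 (0.0177) and Rpa2 (0.0197), and Pclaf and Uhrf1 had 0.963 and 0.486. Dropping 1 rat changed the count to 4 (17.6 h), 5 (58 h), 6 (16 h), 9 (10 h), 10 (14.6 or 57 h), 11 (59.8 or 61.3 h) or 26 (43 or 64.2 h), while 18247 to 20899 of all probe sets were called.

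The promoters of these genes were read for E2F letters because the genes are known E2F targets and most moved together. The 250 bases before the start of each gene (RefSeq, rat build GRCr8) were searched on both strands for TTTGGCGC, TTTCCCGC, TTTGCCGC and TTTCGCGC, where a palindromic stretch such as that of Gins1 counts on both strands. Of the 29 measured genes with a promoter entry (none for Mcm4 and Rpa3), 9 held such letters (31.0%), against 498 of 27457 promoters in all (1.81%) and 1 of 15 mitosis genes (6.67%). The mitosis list included Cdk1 here, and the 1 mitosis gene with such letters was Cdk1 itself. The 9 replication genes were Mcm2, Mcm5, Mcm6, Mcm7, Mcm8, Pclaf, Tyms, Gins1 and Pola1. They ran from the highest r with Cdk1 (Pclaf) to the lowest (Mcm8). CCAAT was in 19 of 29 (65.5%, against 34.3% of all promoters and 80.0% of the mitosis genes). The CHR letters TTTGAA or TTCGAA were in 4 of 29 (13.8%, against 17.3% of all promoters and 53.3% of the mitosis genes). The stretches of 6 genes are shown 5′ to 3′ on the gene's strand and ending at or before its start. Capitals mark only the match nearest the start, while Mcm5 held 3 matches and Mcm6 and Gins1 held 2 each. The 6 genes are Pclaf, Mcm5, Mcm6 and Gins1, which had 4 of the 6 steepest slopes on Cdk1, Tyms, which was highest at 37.1 h, and Mcm8, which stood apart.
Pclaf: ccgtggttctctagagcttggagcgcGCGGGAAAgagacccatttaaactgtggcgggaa
Mcm5: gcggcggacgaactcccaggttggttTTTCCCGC
Mcm6: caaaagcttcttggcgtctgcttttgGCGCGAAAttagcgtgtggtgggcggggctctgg
Gins1: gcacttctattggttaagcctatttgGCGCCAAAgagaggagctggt
Tyms: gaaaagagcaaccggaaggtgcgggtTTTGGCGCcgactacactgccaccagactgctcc
Mcm8: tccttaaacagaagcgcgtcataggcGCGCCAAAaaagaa
These lie at chr8:75315646-75315705 (plus strand), chr19:13488779-13488812 (plus), chr13:42404454-42404513 (minus), chr3:160184873-160184919 (plus), chr9:120776087-120776146 (minus) and chr3:140539607-140539646 (plus), in that order. A match is a description of letters and not a site shown to be bound.

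Other genes of the pathway, from lists drawn up by function, gave the surroundings. Of 36 other measured replication genes, 19 passed for the slope on Cdk1, all above 0, with Dscc1 (0.61, SE 0.05, adjusted p = 1.53e-09), Asf1b (0.57, SE 0.07, adjusted p = 1.12e-06), Hells (0.40, SE 0.06, adjusted p = 0.000112) and Dut (0.35, SE 0.03, adjusted p = 3.95e-08) steepest, and the median r with Cdk1 was 0.55. Of 18 genes of the E2F pathway and the G1 and S cyclins 7 passed, 6 of them above 0, and E2f1 itself had a slope of 0.38 (SE 0.05, adjusted p = 1.09e-05). Of 17 measured mitosis genes besides Cdk1 all 17 passed, with a median slope of 0.81, above that of the replication genes (0.31), a difference between lists that was not tested. Of 5 CDK inhibitors 1 passed, Cdkn1c (0.18, SE 0.05, adjusted p = 0.0130). Between days 1 and 3, where no replication gene of either list passed, 3 mitosis genes did, Ccnb2 (2.15, SE 0.55, adjusted p = 0.0484), Kif20a (1.75, SE 0.44, adjusted p = 0.0455) and Cenpf (1.66, SE 0.38, adjusted p = 0.0271).

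The 10 genes outside the list whose rats ran most like the mean of the 31 standardised replication genes were Dctpp1, Mad2l1, Tcf19, Dnajc9, Ncaph, Ran, Spag5, Shcbp1, Cenpk and Trip13, with r from 0.96 down to 0.94 over 31 rats.

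Markers of the gland's cell types were set beside these results. The summed level of 9 of 10 basal and myoepithelial markers correlated with Cdk1 (r = 0.66) and less with the mean of the replication genes (r = 0.41). The sum ran from 6965 to 11073 on day 1, 9141 to 15290 on day 2, 10685 to 16326 on day 3 and 9547 to 13099 on day 4, and the rats of 37.1, 43 and 62.5 h ranked 12, 8 and 6 of 31. Singly, 4 of the 9 markers had r above 0.5 with Cdk1, and only Krt5 passed for the slope on Cdk1 within days. Of the 5 markers that passed between days 1 and 3, 4 were higher on day 3 and Oxtr was lower (-1.66 log2 units). The mean of the 9 standardised markers, not their sum, was then used as a covariate, chosen after the correlation of the sum was seen. With it 28 of 31 genes still passed for the slope on Cdk1 (2692 of all probe sets). The day course then differed from that of Cdk1 for 0 of 31 genes, but also for only 26 of all probe sets in place of 20667. The sums of 14 luminal, 9 adipocyte, 6 lymphocyte, 8 macrophage, 5 skeletal muscle and 5 endothelial markers had r between -0.38 and 0.10 with Cdk1. The rat of 62.5 h had the lowest macrophage sum of all (4589, median 7729). It ranked 30 of 31 in the endothelial sum (2295, median 3088) and 29 in the adipocyte sum (56770, median 70451). In the luminal, lymphocyte and skeletal muscle sums it ranked 12, 23 and 25. Its array weight in limma was 0.46, where the weights ran from 0.38 to 2.21. The part of these values in the result was not tested. The 3′ to 5′ signal ratio of beta-actin, a sign of RNA quality, was 2.63 to 4.29 over the rats and 2.99, 2.76 and 3.13 in the rats of 37.1, 43 and 62.5 h, with r = -0.27 with the mean of the replication genes.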

How the data were processed

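Total RNA of 32 rat mammary glands was hybridised to 1 Affymetrix rat genome array each. Intensity is on a linear scale in the deposited table, after the authors' GC-RMA step, a background correction and between-array normalization listed as GCRMA among the submitters' tools, without a version. Log2 values were taken here, and no further normalization was applied. Of the 31099 probe sets, 57 controls were left out and 21068 had an intensity of at least 10 on the 31 arrays used. Symbols came from the platform annotation, and all 31 members kept their symbol in GRCr8. For a gene with several probe sets the one of highest mean log2 was used.

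The members and lists were chosen with earlier results of these data known. limma 3.58.1 in R 4.3.3 fitted day and clock hour (centred at 12.5 h), with Benjamini-Hochberg adjustment over all probe sets and a threshold of 0.05. Method 1 followed the study's spline, knots and permutation vector. Genes with values by rat were Cdk1 and those of highest rho, largest change, extreme r with Cdk1 or extreme residual SD. The fits were checked on simulated data. Alternatives covered the filter, arrays, normalization, weights, variance model, covariates, spline order, false discovery rate and probe set, and leaving out each rat. Labels do not say whether arrays were run in batches, so none could be tested. The number of arrays limits the precision. The limma p-values rest on the spread between rats of a day, as a single estimate shared by the 4 days. The days did not spread alike, with an SD of the Pclaf intensity of 29.8, 164, 394 and 34.4 on days 1 to 4. Method 1 and the correlations used permuted arrays, so their p-values do not measure the spread within a day. Python 3.11.15 was used for the other steps.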

Additional observations from a re-analysis of the deposited data

Results flagged for a closer look

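Within each day, the gap in log2 intensity of the highest or lowest rat to its neighbour was set against the log2 range of the day's 7 or 8 rats. This was done for the 31 replication genes and Cdk1, and the values named below are linear intensities. Of 128 groups 20 exceeded Dixon's 95% value, where chance alone gives about 1 in 20 groups, and the genes share their rats. Of the 20, 17 were the high value of the rat of 62.5 h on day 3. They were Mcm4 at an intensity of 650, Mcm6 at 561, Mcm7 at 1077, Pcna at 3622, Gmnn at 178, Gins1 at 165, Pola1 at 262, Pole at 62.7, Prim1 at 583, Rfc3 at 296, Rfc4 at 602, Tk1 at 75.8, Fen1 at 57.6, Lig1 at 255, Rpa2 at 284, Chaf1a at 157 and Chaf1b at 81.7. The other 3 were the high values of Prim1 at 7 h (238) and Rfc3 at 7.5 h (114) on day 1 and the low value of Tyms at 86.3 h (12.4) on day 4. For no gene did a difference between days in the slope on the clock hour or on Cdk1 pass after adjustment. Unadjusted, the limma interaction gave p under 0.05 for 6 of 31 genes on the clock hour (3.56% of all probe sets). On Cdk1 it did so for 15 (5.5% of all).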

How the results depend on the processing

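The slope on Cdk1 was the call that held best. It passed for 28 of 31 genes (2480 probe sets in all) and for 27 to 29 with 1 rat left out (1299 to 2952 in all). Under every other alternative that kept all rats it passed for 28 or 29 (1836 to 2692 in all). Without the rats of 37.1, 43 and 62.5 h it passed for 9 (195 in all), and Mcm7 (-0.0087) and Mcm8 (-0.048) turned sign. Leaving out those 3 rats also gave a median r with Cdk1 of 0.531, a median residual SD of 0.255 and 15 genes that share the knot of Cdk1. The day course then differed from that of Cdk1 for 29 genes (20819 probe sets in all). A day effect was found for 0 genes (133 in all) and a change from day 2 to day 3 for 0 (80 in all). With 1 rat left out, the median r was 0.705 to 0.795, 29 to 31 genes had the highest r in the same rat, the residual SD was 0.335 to 0.415, and 7 to 29 genes shared the knot of Cdk1. By the highest day mean 14 genes shared the day of Cdk1.

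Method 1 called 8 of 31 genes and 1908 probe sets in all. It called 0 to 17 genes with 1 rat left out (665 to 2709 in all), 0 at a false discovery rate of 0.05 (373), 2 with no filter (1424), 5 with a filter of 10 or more on 16 arrays (1845), 1 with spline order 3 (844), 0 with spline order 4 (437) and 0 with the moderated F of the same spline (246). The 1 gene with a day effect, Mcm8, was lost (0 genes) with no filter and with lymphocyte (adjusted p in limma 0.144) or basal markers (0.111) as a covariate, while calls over all probe sets fell from 121 to 73, 15 and 13. The 1 gene changed from day 2 to day 3, also Mcm8, was lost (0 genes) with no filter, with the filter on 16 arrays, with the trended and robust variance model and with lymphocyte or basal markers as a covariate, with a difference of 0.79 to 0.80 in each and 57 calls over all falling to 43, 52, 52, 11 and 32. With 1 rat left out each of these counts was 0 or 1, and the day effect was lost in 20 of 31 such fits. Calls over all probe sets were then 39 to 179 for the day effect and 9 to 123 for day 2 to day 3. Array weights gave 1 gene changed from day 2 to day 4 in place of 0, while calls over all rose from 9 to 63. The day course differed from that of Cdk1 for 17 genes, for 4 to 26 with 1 rat left out and for 0 with basal markers as a covariate, where calls over all fell from 20667 to 26. The causes were not tested.

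Only 1 Cdk1 probe set was listed, so the alternative with another could not be run. No paired analysis was possible because each rat stands for its own hour and no number pairs rats across days.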
